A study of Mus musculus with 96 samples.

Results

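Chromosomes 12 and 14 of the mouse pancreatic cancer line KPC1199EGFP lay at the level of the disomic chromosomes in most nuclei, with extra copies in a minority. All bins of these chromosomes were taken from the deposited copy ratio table, 224 bins of chromosome 12 and 228 of chromosome 14, which is 452 of 4906 bins. The rule took every bin of these chromosomes, whatever its value, in all 96 libraries.

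KPC1199EGFP is an adherent C57BL/6 line with the fluorescent reporter EGFP, sampled here untreated at passage 9. DAPI, a dye that binds DNA, was used to sort nuclei by DNA content before whole-genome amplification with SeqXE and sequencing. The 2N gate gave 47 single nuclei, the 2N+ gate 35 and the 4N gate 12, together 94, and 1 bulk sample each of the 2N and 2N+ gates made up the remaining 2 libraries. All libraries share the line, the passage and the lack of treatment, and the labels name no separate cultures, so each gate was read as 1 sample of many nuclei and no p-value was computed. Nuclei are named by gate and by the number in their label.

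Aneuploidy, the gain or loss of whole chromosomes, is frequent in pancreatic ductal adenocarcinoma and in the lines made from mouse models of it. A whole extra chromosome is the usual product of missegregation at mitosis, whereas a partial gain needs a break along the arm. Mouse autosomes are telocentric, so that coordinates begin beside the centromere and a gain from the chromosome start is a gain of the centromeric side. By the RefSeq gene table of assembly GRCm38.p6, chromosome 12 carries 679 protein-coding genes and chromosome 14 carries 851. Among those on chromosome 12 are Mycn, a MYC family transcription factor, Akt1, a kinase of the PI3K pathway, Hif1a, a transcription factor of the response to low oxygen, and Dicer1, the RNase that makes mature miRNAs. Chromosome 14 carries Rb1, the retinoblastoma tumour suppressor, Bap1, a deubiquitinase and tumour suppressor, Lats2, a kinase of the Hippo pathway, and Gata4, a transcription factor of gut and heart. The ratios are in mm9 coordinates, so genes were placed by chromosome only and not inside the segments given here.

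The deposited values are linear ratios within a library, constant within segments, and the median bin is 488 kb wide. They are not counts, so read depth is unknown. To turn ratios into copies, each nucleus was scaled by a multiplier chosen so that its autosomes came closest to whole numbers. The reference level of a nucleus was the median of chromosomes 4, 7, 9, 10 and 13, which had earlier been seen to lie near 2 copies. A bin was called gained at 0.5 copies or more above the reference, and lost at 0.5 or more below it. A gain was whole when at least 90% of the bins were gained, and partial when a run of at least 5 bins was gained. Intervals are exact Clopper-Pearson 95% intervals over nuclei and cover counting error only. No pair of libraries held identical values. The residual from whole copies was above 0.15 in 8 nuclei, and 6 nuclei had more than 60 breakpoints inside chromosomes.

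Chromosome 12 was gained, in whole or in part, in 12 of 94 nuclei (12.8%, 6.77 to 21.2). Chromosome 14 was gained in 8 of 94 nuclei (8.51%, 3.75 to 16.1). By the same rule, 57.9% of all pairs of an autosome and a nucleus were gained over the reference, and 1.7% of the pairs of a reference chromosome and a nucleus. The shares of chromosomes 12 and 14 lay between these values. Extra copies of either chromosome were held by 19 of 94 nuclei (20.2%, 12.6 to 29.8), and 75 nuclei held none.

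In the 2N gate chromosome 12 was gained in 6 of 47 nuclei (12.8%, 4.83 to 25.7), where 54.5% of all autosomes and 0.851% of the reference chromosomes were gained. In the 2N+ gate it was gained in 3 of 35 nuclei (8.57%, 1.80 to 23.1), against 61.7% and 2.29%. In the 4N gate it was gained in 3 of 12 nuclei (25%, 5.49 to 57.2), against 60.1% and 3.33%. The 3 intervals overlapped. Gains of chromosome 14 were held by 1 of the 47 nuclei sorted as 2N (2.13%, 0.0539 to 11.3) and by 4 of the 35 sorted as 2N+ (11.4%, 3.20 to 26.7). Among the 12 sorted as 4N there were 3 (25%, 5.49 to 57.2). The intervals of chromosome 14 overlapped as well. Overlap does not show that shares are equal, and a difference between the gates was not tested for either chromosome. The 4N counts were also the most open to the processing. With the reference fixed at 2 copies in each nucleus, chromosome 12 was gained in 1 nucleus of the 4N gate. That fall follows from the scale, since the ratios of 4N nuclei 3 and 5 lie below the limit for a gain there. Without the nuclei of more than 60 breakpoints chromosome 14 was gained in 1 nucleus of this gate.

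**Figure D1:**
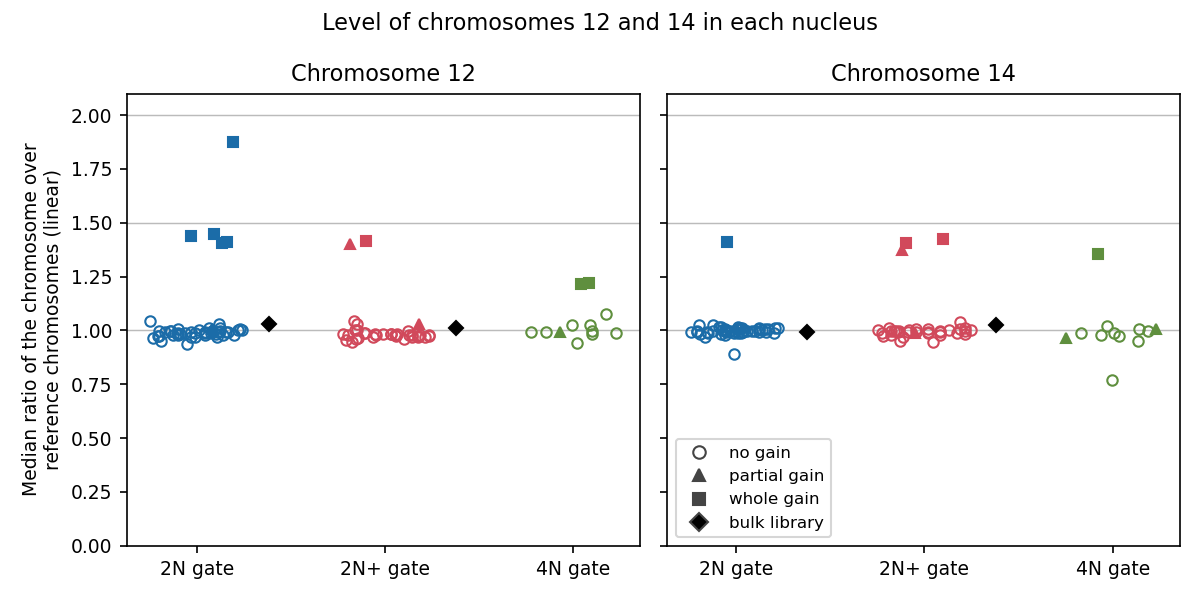
Median ratio of chromosome 12 (left) and chromosome 14 (right) over the reference chromosomes, on a linear axis, with 1 point per nucleus by gate; horizontal spread of points is for display only. Filled squares are whole gains, filled triangles partial gains, open circles nuclei without a gain and black diamonds the bulk libraries; whole gains of chromosome 12 run from 1.22 to 1.87 and those of chromosome 14 from 1.36 to 1.43, above the nuclei without a gain.

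Away from the gains, both chromosomes were held tightly at the reference level. In the 40 nuclei of the 2N gate with no gain or loss of chromosome 12, the chromosome had 2.00 ± 0.0330 copies (SD, n = 40), with a range from 1.92 to 2.06. In the 2N+ gate the same class had 1.99 ± 0.0269 copies (SD, n = 29). For chromosome 14 the 2N nuclei gave 2.02 ± 0.0327 copies (SD, n = 46) and the 2N+ nuclei 2.01 ± 0.0391 (SD, n = 31). In the 4N gate some nuclei have a reference near 4 copies and 4N nucleus 2 has one of 2.91, so ratios to the reference are given. They were 1.01 ± 0.0415 for chromosome 12 and 0.982 ± 0.0183 for chromosome 14 (SD, n = 7 each). These SDs cover only nuclei picked by the rule as having no gain or loss, so the distance of a whole gain in such SDs follows in part from that choice. Over all 47 nuclei of the 2N gate the SD of chromosome 12 was 0.360 copies. Among nuclei without a gain, the largest excess over the reference was 0.218 copies for chromosome 12, in 4N nucleus 2, and 0.0700 copies for chromosome 14, in 2N+ nucleus 22. Both nuclei have residuals above 0.15, at 0.206 and 0.162, and 2N+ nucleus 22 has 91 breakpoints. No nucleus without a gain had any gained bin of chromosome 12, and at most 1.32% of the bins of chromosome 14 were gained in one.

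Whole gains of chromosome 12 were found in 8 of 94 nuclei (8.51%, 3.75 to 16.1), against 41.4% of all pairs of an autosome and a nucleus and 0% of the pairs of a reference chromosome and a nucleus. The reference chromosomes were picked because they stayed near 2 copies, so their count follows from that choice. The median ratio of these 8 nuclei over the reference was 1.41, with a lowest value of 1.22 and a highest of 1.87. In the 2N gate, nucleus 21 had 2.93 copies of chromosome 12, nucleus 23 had 2.89, nucleus 28 had 2.91 and nucleus 42 had 2.87. These are levels near 3 over references from 2.02 to 2.05. In nucleus 42 the stretch chr12:113606816-118288596, 8 bins near the far end, stood higher at 3.40 copies.

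2N nucleus 47 was the one nucleus with 2 extra copies, at 3.83 copies of chromosome 12 along all 224 bins and a ratio of 1.87. In the same nucleus chromosome 1 was rounded to 2 copies and chromosome 19 to 4. 2N+ nucleus 20 had 2.88 copies of chromosome 12. The other 2 whole gains were in the 4N gate, in nuclei whose reference lay near 4 copies. 4N nucleus 3 had 4.92 copies over a reference of 4.04, and 4N nucleus 5 had 4.90 over 4.02. Their ratios of 1.22 are what 1 extra copy over 4 gives, and they are called gains only on the scale with a reference of 4. Over a reference of 2 such a ratio always lies below the limit for a gain, so that scale cannot test these calls. Simulated whole gains in a set of 4 were given the right class in 82% of 50 simulated nuclei when noise was 0.02. The share was 50% when noise was 0.05, against 100% for sets of 2. In these simulated sets all chromosomes but 12 were doubled to even numbers, so only chromosome 12 could reveal a set of 4. In 4N nuclei 3 and 5 other chromosomes have odd numbers too, so these rates do not carry over to them. 4N nucleus 3 had 5.05 copies of chromosome 1, 5.04 of 2, 5.10 of 6, 4.96 of 11 and 3.12 of 14. 4N nucleus 5 had 5.08 copies of chromosome 1 and 4.98 of 18, but 5.29 of chromosome 2, further from a whole number. Odd numbers over a reference of 4 are not whole numbers over a reference of 2. Which scale holds was not tested.

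Each of the 4 partial gains of chromosome 12 began at the chromosome start. In 2N nucleus 14 the gain covered chr12:1-56463987, which is 95 of 224 bins or 42.4%, at 2.82 copies, and the rest of the chromosome had 2.01. In 4N nucleus 6 it covered exactly the same 95 bins at 2.82 copies, with 1.99 in the rest. The step at 56463988 was seen in these 2 nuclei and in no other of the 94, also within 3 bins on either side. In 2N+ nucleus 6 the gain covered chr12:1-63058503, 108 bins, at 2.90 copies. In 2N+ nucleus 11 it covered chr12:1-65768080, 113 bins, at 2.86 copies, and all 111 bins beyond it had 1.10. That nucleus therefore held an extra copy of the centromeric side of chromosome 12 beside a missing copy of the far side, and its change at the step was the largest among the 4 partial gains of chromosome 12. The 3 distinct ends of these gains lie between 42.4% and 50.4% of the bins.

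**Figure D2:**
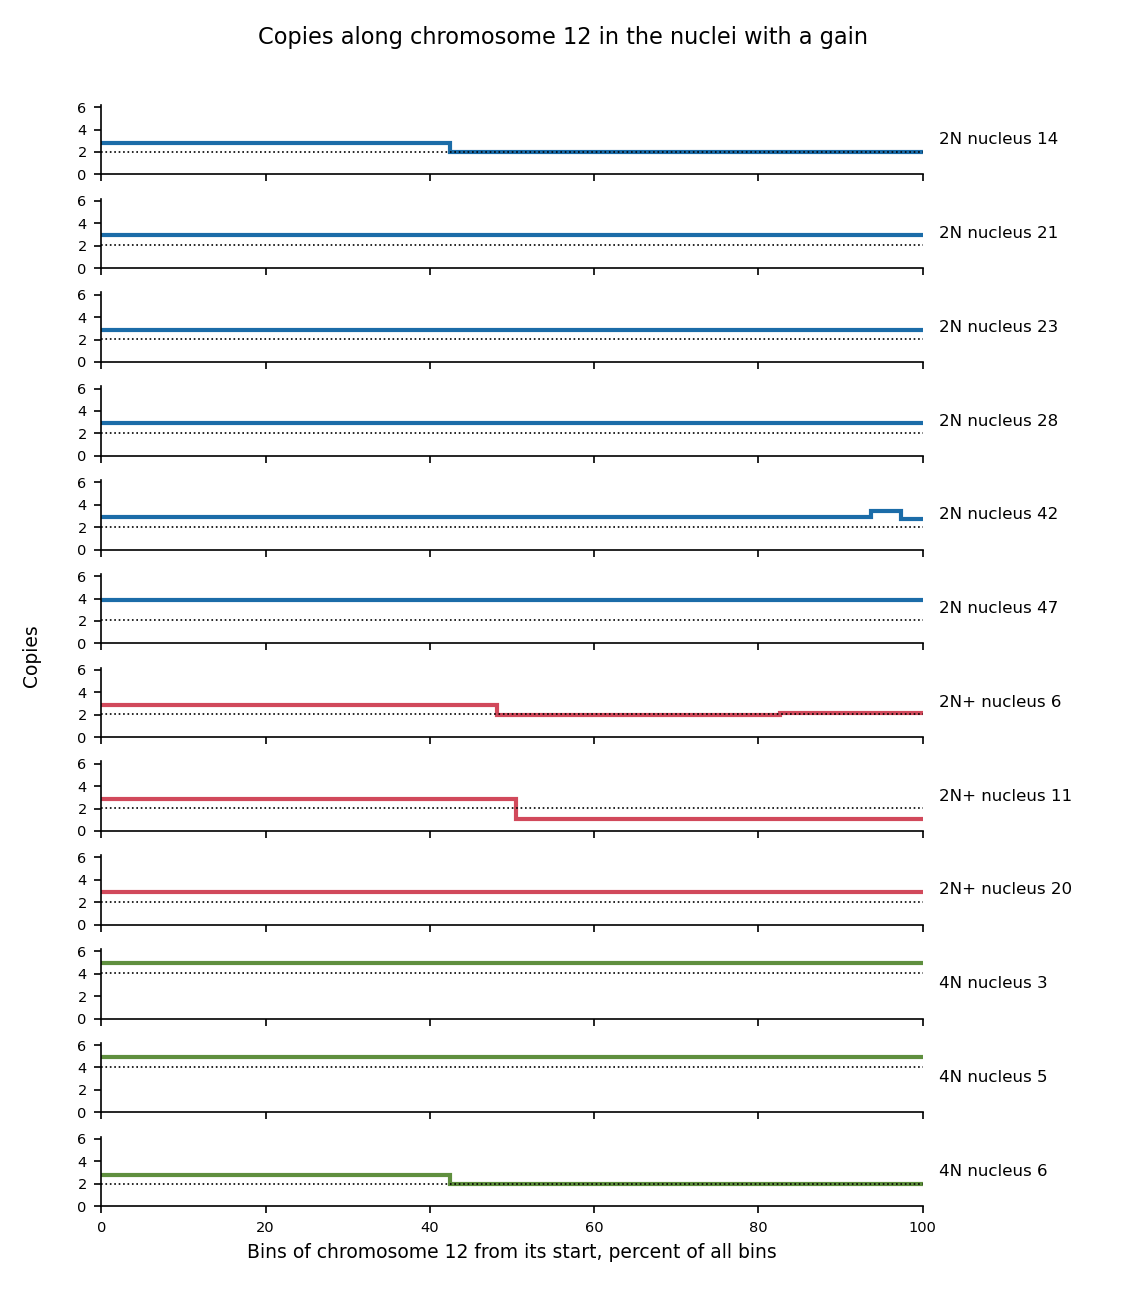
Copies along chromosome 12 in the 12 nuclei with a gain; the horizontal axis gives bins from the chromosome start as percent of all 224 bins, the vertical axis gives copies, and the dotted line is the reference level of the nucleus. The 8 whole gains run along the full axis, and the 4 partial gains end between 42.4% and 50.4%; 2N nucleus 14 and 4N nucleus 6 step down at the same bin.

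Whole gains of chromosome 14 were found in 4 of 94 nuclei (4.26%, 1.17 to 10.5). 2N nucleus 29 had 2.93 copies and 2N+ nucleus 30 had 2.89, each along all 228 bins. 2N+ nucleus 13 had 2.88 copies with 98.7% of bins gained, and 4N nucleus 8 had 2.84 copies with 97.4% gained. Both of these had a short gap at nearly the same place. In 2N+ nucleus 13 the 3 bins of chr14:83958029-85518764 were at 1.94 copies, and in 4N nucleus 8 the 6 bins of chr14:82900627-86037547 were at 2.15. Steps in this stretch were also seen in 2N+ nucleus 14 and 4N nucleus 10, where chromosome 14 was not gained, and the latter had 1.24 copies over chr14:83432418-86037547. The partial gain of 2N+ nucleus 11, given next, begins at 86037548, the bin at which the gap of 4N nucleus 8 ends. The ratios of the 4 whole gains to the reference ran from 1.36 to 1.43. Unlike for chromosome 12, no called gain of chromosome 14 reached 4 copies or lay over a reference of 4.

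Partial gains of chromosome 14 were found in 4 of 94 nuclei, and none began at the chromosome start. In 2N+ nucleus 21 the gain ran from 20846219 to the chromosome end, 89.5% of the bins, between 2.81 and 3.0 copies, while the first 24 bins had 2.02. This nucleus lies just under the 90% that makes a gain whole, and it counts as whole when 80% is used. In 2N+ nucleus 11 the gain covered chr14:86037548-117809415, 63 bins, at 2.82 copies, with the 15 bins beyond it at 1.97. The partial gains in 4N nuclei 7 and 9 were much shorter. In 4N nucleus 7 it held 6 bins, chr14:110663767-113755112, at 2.96 copies, directly before a loss of the last 23 bins at 1.12. In 4N nucleus 9 it held 10 bins, chr14:92707559-97747718, at 2.80. Both are among the 6 nuclei with more than 60 breakpoints, with 70 and 112, and without those nuclei 2 partial gains of chromosome 14 were left. At 0.3 copies in place of 0.5 the count rose to 7, by 2N+ nuclei 15 and 24 and 4N nucleus 10.

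**Figure D3:**
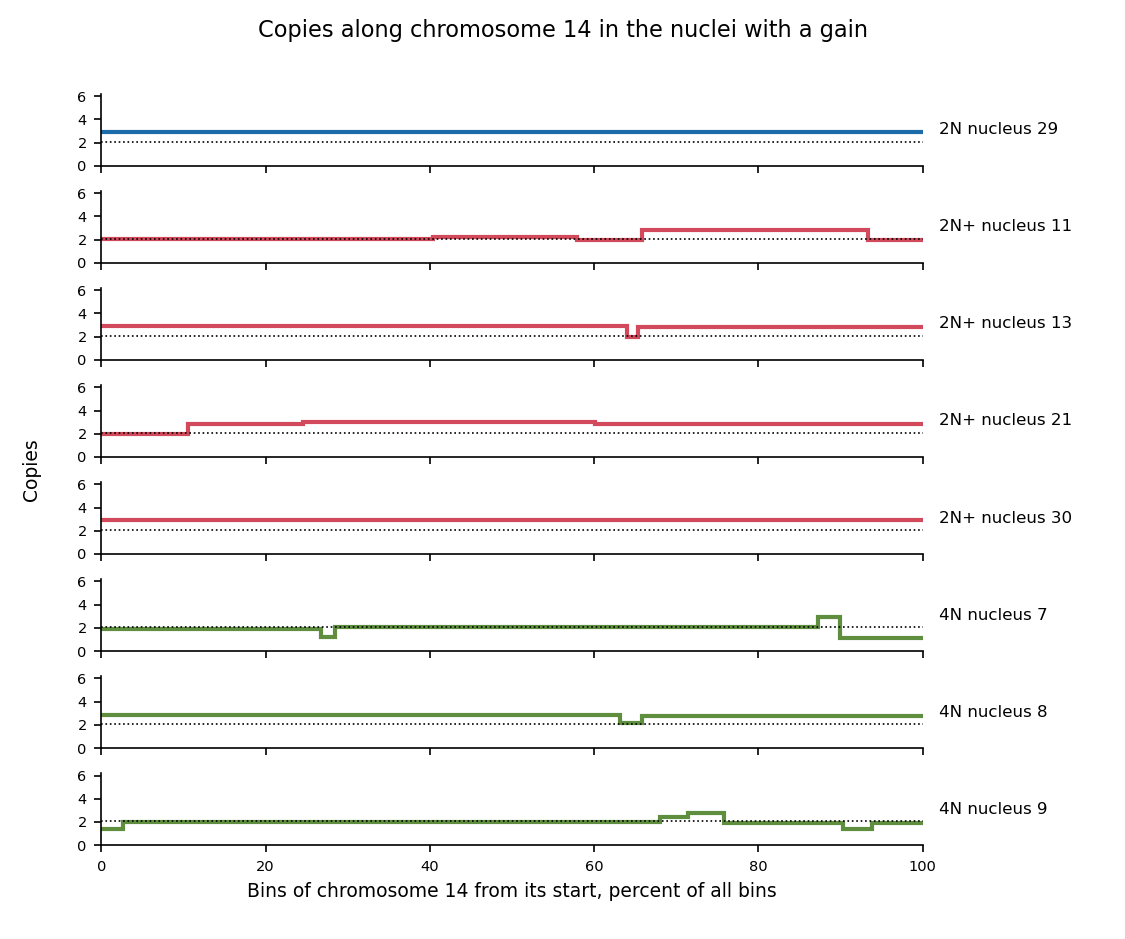
Copies along chromosome 14 in the 8 nuclei with a gain; the horizontal axis gives bins from the chromosome start as percent of all 228 bins, the vertical axis gives copies, and the dotted line is the reference level of the nucleus. The 4 whole gains lie near 3 copies, with a short gap in 2N+ nucleus 13 and 4N nucleus 8, and the gains in 4N nuclei 7 and 9 cover 6 and 10 bins.

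Gains of chromosomes 12 and 14 fell in different nuclei with 1 exception. Chromosome 12 alone was gained in 11 nuclei, chromosome 14 alone in 7, and both in 2N+ nucleus 11, where both gains were partial. Of the 12 nuclei with a gain of chromosome 12, 8.33% also had one of chromosome 14 (0.211 to 38.5), and of the 82 nuclei without it 8.54% had one (3.50 to 16.8). The shares were close, and the first interval is too wide to tell joint from separate gains. No nucleus held a whole gain of both. With runs from 3 bins, 4N nucleus 3 joined as a second nucleus with both: it held a whole gain of chromosome 12 and 3 bins of chromosome 14, chr14:11256885-12718241, at 5.74 copies. The next 14 bins of chromosome 14 in that nucleus were at 4.27 copies over a reference of 4.04, whereas the first 6 bins had 3.05 and the last 205 had 3.12.

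The set of copy numbers of the other chromosomes was then compared, leaving 12 and 14 out. This used 90 nuclei with a multiplier of up to 3, because 4N nuclei 2, 3, 4 and 5 have larger ones. Rounded copies of the other 18 chromosomes made 52 distinct sets, of which 44 were held by 1 nucleus each. The most frequent set was held by 14 nuclei, of which 13 were 2N and 1 was 4N. It had 3 copies of chromosomes 1, 2, 3, 6, 8, 11, 17, 18 and 19, 1 copy of chromosome X and 2 copies of the rest. Of these 14 nuclei, 6 had a gain of chromosome 12 (42.9%, 17.7 to 71.1), against 4 of the other 76 (5.26%, 1.45 to 12.9). Chromosome 12 was therefore gained in a larger share of the nuclei with this set than of the others. The pooled intervals did not overlap, but nuclei of 1 line can share descent, so intervals here and below are not a test of association. Among the 6, 2N nucleus 14 and 4N nucleus 6 have a gain that ends at the same bin. Within the 2N gate alone the shares were 5 of 13 (38.5%, 13.9 to 68.4) and 1 of 34 (2.94%, 0.0744 to 15.3), with intervals that overlapped narrowly.

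The 6 nuclei were 2N nuclei 14, 21, 23, 28 and 42 and 4N nucleus 6. The other 8 holders of the set, 2N nuclei 3, 17, 22, 24, 33, 37, 38 and 40, had no gain of chromosome 12. The same set thus occurred with chromosome 12 at 2 copies, with a gain of its first 95 bins and with a gain of the whole chromosome. Over all bins outside chromosomes 12 and 14, the profile nearest to that of 4N nucleus 6 among 89 others was 2N nucleus 14, the other nucleus with the same end of the gain, at a mean absolute difference of 0.0540 copies. The next nearest were 2N nuclei 42 and 28, at 0.0595 and 0.0606. In the opposite direction 4N nucleus 6 was the 5th nearest to 2N nucleus 14, and 2N nucleus 42 was the nearest. The nearest profile of 2N nuclei 21, 28 and 42 was 2N nucleus 37, and that of 2N nucleus 23 was 2N nucleus 22. Neither 2N nucleus 37 nor 22 had a gain of chromosome 12. The 4N gate label of nucleus 6 is not visible in its ratios, since a set of copies and the same set present in full at another multiple give the same ratios. The next most frequent set, with chromosomes 1, 2 and 18 at 2 copies, was held by 13 nuclei and had 0 gains of chromosome 12 (0 of 13, upper limit 24.7%) and 0 of chromosome 14.

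Another 4 gains of chromosome 12 lay on sets of their own, and the sets of 4N nuclei 3 and 5 were not compared. 2N nucleus 47 differed from its nearest sets in 2 chromosomes, 2N+ nucleus 6 in 2, and 2N+ nuclei 11 and 20 in 3 each. For 2N nucleus 47 the nearest sets included the most frequent one, from which it differed in chromosomes 1 and 19 only. Its nearest profiles, 2N nuclei 22, 42 and 37, held that set. 2N+ nucleus 20 had 4 copies of chromosomes 1 and 3, 3 of chromosome 15 and 2 of chromosomes 8 and 18. All 3 gains in the 2N+ gate lay beside chromosome 3 at 4 copies and chromosome 15 at 3, whereas none of the 6 in the 2N gate did. Of the 2N+ nuclei without a gain of chromosome 12, 27 of 32 had chromosome 3 at 4 or more (84.4%) and 28 of 32 had chromosome 15 at 3 or more (87.5%). In the 2N gate these shares were 5 of 41 (12.2%) and 12 of 41 (29.3%). The gain of chromosome 12 thus occurred beside both states of chromosomes 3 and 15, which are themselves unequally held by the gates. Among the 90 nuclei, 3 or more copies of chromosome 5 were held by 0 of 10 with a gain of chromosome 12 (upper limit 30.8%) and by 21 of 80 without (26.2%, 17 to 37.3), with overlapping intervals. Chromosome 2 was at 3 or more in 10 of 10 (69.2 to 100) and in 58 of 80 (72.5%, 61.4 to 81.9).

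Pooled over gates, gains of chromosome 14 lay beside 4 or more copies of chromosome 3 more often than gains of chromosome 12 did (3 of 10). In the 2N+ gate gains of both lay beside it, with 3 of 3 nuclei for chromosome 12. All 94 nuclei had a gain of chromosome 3, and it reached 4 copies in 8 of 8 nuclei with a gain of chromosome 14 (63.1 to 100), against 31 of 82 without (37.8%, 27.3 to 49.2). These pooled intervals did not overlap. Those within each gate did, but with only 4, 3 and 1 gained nuclei they are too wide to tell the shares apart. In each gate the share was higher among nuclei with a gain, and this was not tested. In the 2N+ gate the shares were 4 of 4 (39.8 to 100) and 26 of 31 (83.9%, 66.3 to 94.5). In the 4N gate they were 3 of 3 (29.2 to 100) and 1 of 5 (20%, 0.505 to 71.6), and in the 2N gate 1 of 1 (2.5 to 100) and 4 of 46 (8.70%, 2.42 to 20.8). Chromosome 15 was at 3 or more in 7 of 8 (87.5%, 47.3 to 99.7) and in 40 of 82 (48.8%, 37.6 to 60.1), and chromosome 18 at 3 or more in 8 of 8 (63.1 to 100) and in 51 of 82 (62.2%, 50.8 to 72.7). The last 2 pairs of intervals overlapped. Of the 8 nuclei, 7 came from the 2N+ and 4N gates, so the pooled shares also carry the difference between gates.

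3 of the 4 whole gains of chromosome 14 shared a narrower set, with 4 copies of chromosome 3, 3 of chromosomes 5 and 15 and 1 of chromosome X. This set was held by 8 nuclei in all, and it was noticed from these data. The 3 were 2N nucleus 29, 2N+ nucleus 13 and 4N nucleus 8, one from each gate. The 5 other holders, 2N+ nuclei 9, 15, 16 and 26 and 4N nucleus 11, had no gain of chromosome 14. Over all gains, whole or partial, the set was held by 3 of 8 nuclei (37.5%, 8.52 to 75.5), against 5 of 82 without a gain (6.10%, 2.01 to 13.7), and the intervals overlapped. 2N nucleus 29 and 2N+ nucleus 13 had the same rounded copies of all 18 other chromosomes, which no other nucleus had. Each was the nearest profile of the other among 89, at 0.0572 copies. 4N nucleus 8 differed from them in chromosome 2 only, which it had at 3 copies where they had 4.

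2N+ nucleus 30, the remaining whole gain of chromosome 14, stood apart from all other nuclei. Its nearest set differed in 8 chromosomes, and its nearest profile lay 0.633 copies away. It had 1 copy of chromosomes 8 and 9, 5 of chromosomes 2, 3 and 16 and 4 of chromosomes 6, 11 and 18. Its residual from whole copies was 0.164, above the limit of 0.15, and chromosome 14 was gained in 7 nuclei when the nuclei with such residuals were left out.

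**Figure D4:**
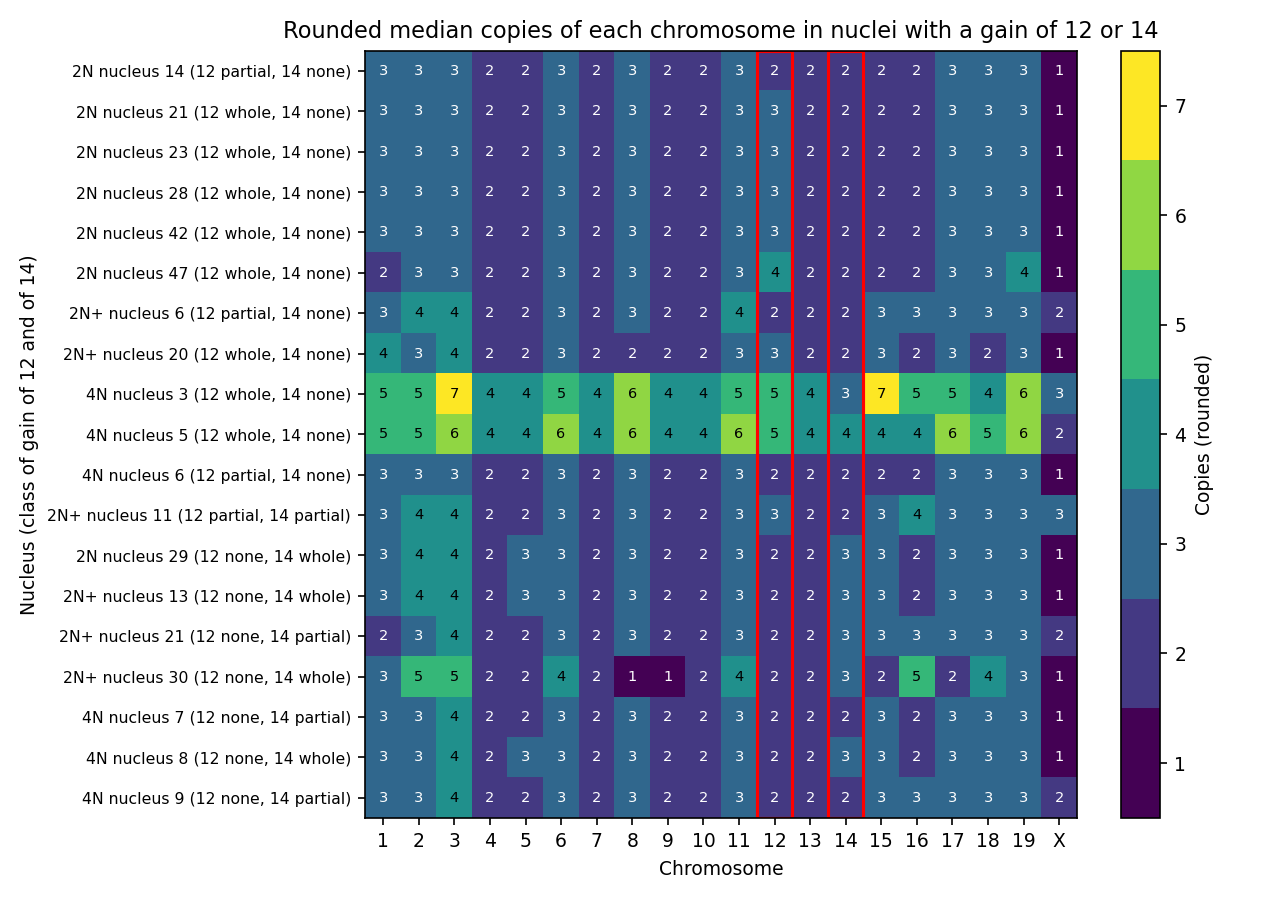
Rounded median copies of each chromosome in the 19 nuclei with a gain of chromosome 12 or 14, as numbers and colour; rows are nuclei with their class of gain, columns are chromosomes, and the red frames mark chromosomes 12 and 14. 2N nuclei 14, 21, 23, 28 and 42 and 4N nucleus 6 read alike outside chromosome 12, and every nucleus with a gain of chromosome 14 has 4 or more copies of chromosome 3; a partial gain can leave the median at 2.

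The chromosomes most like 12 and 14 are the reference chromosomes, and none of these was gained whole in any nucleus. Partial gains were found in 2 nuclei on chromosome 4, in 2 on chromosome 7, in 1 on chromosome 9, in 0 on chromosome 10 and in 3 on chromosome 13. All other autosomes were gained in 50 to 94 nuclei. Chromosomes 12 and 14 ranked next above the reference chromosomes among the 19 autosomes. This order follows in part from picking the reference chromosomes for staying near 2 copies. The partial gain of chromosome 13 in 2N+ nucleus 26 put the median of that chromosome at 2.86 copies. Relative to the most frequent rounded number of the gate, chromosome 12 was higher in 7 of 90 nuclei (7.78%) and chromosome 14 in 5 of 90 (5.56%), where 6.73% of all pairs of an autosome and a nucleus were. By that measure 7 autosomes were above their usual number more often than chromosome 12, and 8 more often than chromosome 14. Chromosome 5 led with 21 nuclei, and chromosomes 2 and 15 followed with 17 each.

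**Figure D5:**
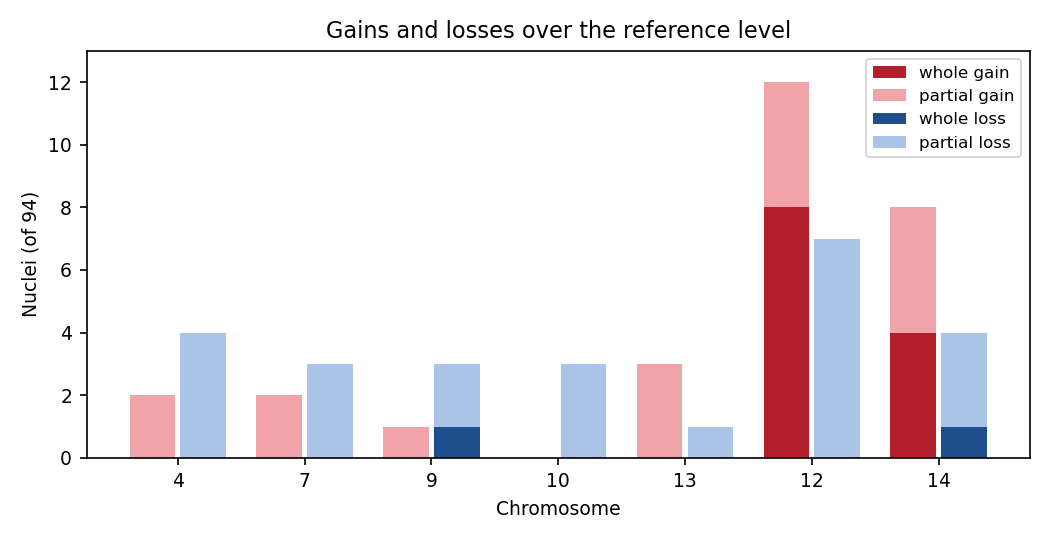
Number of nuclei, of 94, with a gain (red bars) or loss (blue bars) over the reference level for the 5 reference chromosomes and for chromosomes 12 and 14; dark parts are whole and light parts partial changes. Gains reach 12 nuclei on chromosome 12 and 8 on chromosome 14, against 0 to 3 on the reference chromosomes, of which none is whole.

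Losses followed a different pattern from gains. Chromosome 12 had partial losses in 7 nuclei and no whole loss, and chromosome 14 had 1 whole loss, in 4N nucleus 3, and partial losses in 3. At a ratio of 0.772 to the reference, the whole loss is called only on the scale with a reference of 4. By the same rule 1.85% of all pairs of an autosome and a nucleus were lost, and 2.98% of those of a reference chromosome. Apart from 2N+ nucleus 11, the partial losses of chromosome 12 were short. 2N+ nuclei 22 and 31 were low over chr12:17568221-31310180, at 1.34 and 1.42 copies, and 2N+ nucleus 24 over chr12:18417117-31827662, at 1.31. The 17 bins of the former stretch are wide, with a mean of 808 kb and a widest bin of 3752 kb, against a median of 490 kb on the chromosome. The 2N+ bulk library was low in the same stretch, at 1.72 copies over chr12:17088488-26131988, with 2.08 and 2.07 on either side. Over chr12:18417117-25208739, 8 nuclei lay at least 0.15 copies below their own chromosome median, of which 6 were 2N+ and 2 were 4N.

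Nuclei with a partial loss on either chromosome also had more breakpoints. Their median was 77.5 breakpoints over all chromosomes (range 23 to 112, n = 8), against 18 in the 70 nuclei with no gain or loss of 12 and 14 (range 5 to 44). All 6 nuclei with more than 60 breakpoints were in this group, and the part of breakpoint number in the losses was not tested. Nuclei with a gain had a median of 24 for chromosome 12 (range 13 to 36) and of 24 for chromosome 14 (range 19 to 112). Whole gains of either had a median of 20.5 breakpoints (range 13 to 32, n = 12) and partial gains one of 36 (range 24 to 112, n = 7). The part of breakpoint number in the partial gains was not tested either. Breakpoints inside chromosomes 12 and 14 are counted too, so each partial loss or gain itself adds to these numbers. The 70 nuclei were picked for having no such change.

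Steps of at least 0.5 copies were found at 23 positions on chromosome 12 and at 22 on chromosome 14. On chromosome 12, 14 were seen in 1 nucleus and 9 in 2 nuclei or more. On chromosome 14, 18 were seen in 1 nucleus and 4 in 2 or more. No position on either was seen in 5 nuclei or more, whereas chromosome 16 had 7 such positions and chromosomes 2 and 11 had 5 each. Without the nuclei of more than 60 breakpoints the 45 positions fell to 20, and those in 2 nuclei or more fell from 13 to 3.

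The bulk libraries held chromosomes 12 and 14 near the reference. In the 2N bulk library chromosome 12 had a ratio of 1.03 to the reference and chromosome 14 of 0.992, where the means over nuclei were 1.04 ± 0.175 and 1.01 ± 0.0634 (SD, n = 47). In the 2N+ bulk library they had 1.01 and 1.03, where the means over nuclei were 1.01 ± 0.102 and 1.03 ± 0.117 (SD, n = 35). The bulk values lay within the spread of the nuclei. Chromosome 12 in the 2N library and chromosome 14 in both libraries were each 1 flat segment. Gains as rare as these in the nuclei would move a bulk ratio little, so the bulk libraries say nothing on them. There was 1 bulk library per gate and none was replicated.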

How the data were processed

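Whole-genome sequencing of 94 sorted nuclei and 2 bulk samples of KPC1199EGFP was used. Per the submitters' processing notes, reads were processed with Bowtie 1.0 and build mm9. How bins were made, corrected for GC and segmented is not given in the sources used here. Values as deposited by the authors are linear copy ratios per bin, not counts, and already segmented, so changes shorter than a segment are hidden and depth is unknown.

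Positions were made to count from 1. Chromosomes 12 and 14 and the lists, thresholds and reference chromosomes were chosen with earlier results of these data known. Bins whose median ratio lay outside 0.25 to 4 were left out, which kept 4898 of 4906. Multipliers between 1.5 and 6 were tried, 0.05 apart. Every nucleus with a gain is named, and genes are named by chromosome from lists of 10 and 12. Sets of other chromosomes and the stretches that lie low were singled out after their values were seen. The calls were tested on simulated data. Alternatives were other thresholds, run lengths, scales, bins and nuclei. Tools were pandas 2.3.3 and numpy 2.4.6 under Python 3.11.15, with scipy 1.17.1 for intervals and matplotlib 3.10.9 for plots.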

Additional observations from a re-analysis of the deposited data

How the results depend on the processing

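Over 13 alternative settings, 20 results gave 160 values, of which 152 stayed within 1.5 times the reported count or within 1 SD of the reported mean. Within these bounds, gains of chromosome 14 rose from 4 to 6 in the 2N+ gate at 0.3 copies and ranged from 2 to 4 in the 4N gate, and the mean of chromosome 12 in the 4N gate fell from 2.75 to 2.07 copies (SD 1.18 and 0.180) with the reference set to 2 copies. The 8 beyond them were these. Gains of chromosome 12 in the 4N gate fell from 3 to 1 with the reference chromosomes set to 2 copies. They also fell to 1 with the multiplier limited to 2.0 to 3.0. 4N nuclei 3 and 5 then have a reference of about 2, over which their ratios of 1.22 lie below the limit for a gain. These falls thus follow from the scale and do not test the gains of 4N nuclei 3 and 5. Without the nuclei of more than 60 breakpoints, gains of chromosome 14 in the 4N gate fell from 3 to 1 and its partial gains from 4 to 2, the step positions from 45 to 20, and those in 2 or more nuclei from 13 to 3. Partial gains of chromosome 14 rose from 4 to 7 with bins gained at 0.3 copies, and gains of both chromosomes from 1 to 2 with runs from 3 bins. Some of the 152 values had little or no room to move. Multipliers of the 2N and 2N+ nuclei already lay within 2.0 to 3.0, and all bins of chromosomes 12 and 14 were already kept. The limit for whole gains does not act on counts of any gain, nor run length on whole gains. The 152 are therefore no measure of how firm the results are. No paired analysis was possible because no result comes from a test between groups and replicate numbers only name nuclei. Depth is unknown, and segmented ratios cannot tell a set of copies from its multiple.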
